A study of Mus musculus with 10 samples.

Results

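Germinal center B cells of mice with a Cre-deleted Zbtb38 were compared with cells in which both Zbtb38 alleles were floxed but intact, so that the presence of Cre was the only labelled difference. Members were chosen by their labels: 2 WT libraries (genotype Zbtb38fl/fl) and 6 KO libraries (genotype Zbtb38fl/fl x Vav-Cre), 8 of the 10 libraries of the series. The strain of both groups was C57Bl6/N, and the age of the mice is not given in the sources used here. All mice had been immunized with NP-OVA in alum, and NP-binding GL7+IgD- B cells were taken for RNA-seq 2 weeks later. Cre cuts out exon 3 of Zbtb38, and with it every coding base of the gene. The floxed line goes back to 1 founder made in C57Bl6/J zygotes and then bred and backcrossed to C57Bl6/N, and littermates served as controls. Vav-Cre is active mainly in blood-forming cells, so the deletion precedes the germinal center and is shared by other blood cells of the same mouse.

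ZBTB38 is a BTB zinc finger protein, one of the few transcription factors that recognize methylated CpG, and is known mainly as a repressor. It is targeted for degradation by the ubiquitin ligase RBBP6, is deubiquitinated by USP9X, and represses the replication factor gene Mcm10. Germinal centers are the sites in lymphoid follicles where activated B cells divide, mutate their antibody genes in the dark zone, and are selected for antigen binding in the light zone with help from T cells.

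The WT libraries held 41059082 and 27462439 estimated counts, and the KO libraries between 26612431 and 33894832 with a median of 30056449.5. Of 22380 genes, 15442 and 15331 had a count in the WT libraries and 13886 to 15554 in the KO libraries. Levels are in CPM, which is counts scaled to library size with TMM factors, and differences are log2 fold changes of KO over WT from edgeR's quasi-likelihood test unless another tool is named. The B cell identity of the cells was clear in both groups. All 10 B cell markers were among the genes tested, and their summed level was 10493 and 11692 CPM in WT against 9602 to 13344 CPM in KO, with Cd79b the most abundant per length. Of 14 germinal center B cell markers 13 were tested, with sums of 3258 and 3017 CPM in WT and 2313 to 4559.6 CPM in KO, led per length by Mef2b. Libraries of KO mice differed among themselves. KO replicate 6 was at 142.5 on the first principal component, where the other libraries lay between -30.9 and 6.51, and KO replicate 1 was at -100.2 on the second, where the others lay between -13.1 and 37.8. Y-linked transcripts separated the libraries in another way: the WT libraries and KO replicates 1, 2 and 5 had 209 to 281 CPM summed over 4 Y-linked genes, and KO replicates 3, 4 and 6 had 4.20 to 6.99 CPM.

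Zbtb38 RNA, counted over the whole gene and so with exons that Cre leaves in place, was reduced, not absent, in every KO library. In the read alignment of the paper, transcripts of the floxed exon 3 itself were fully lost in KO. In GRCm38 the gene spans 96682770 to 96752831 of chromosome 9, is read from the minus strand, and has its 3591 coding bases between 96685439 and 96689029. Summed over its transcripts, it was at 163 and 153 CPM in WT and at 18.8 to 50.6 CPM, with a median of 30.5, in KO. KO replicate 2 was the highest and KO replicate 6 the lowest, and all 6 lay far below both WT libraries. In log2 terms this was -2.31 with a standard error of 0.274 (edgeR adjusted p = 0.0734, from 7.13e-09 to 1 over the alternatives). It was -1.19 on length-scaled counts and -1.34 by limma on log2(TPM + 1), and the KO mean was 20.2% of the WT mean in CPM and 40.6% in TPM. Without WT replicate 1, WT replicate 2 or KO replicate 1, 3, 4 or 5 the adjusted p was above 0.1. The transcript that carries the whole coding sequence and had counts, ENSMUST00000152594.7, was at 109 and 93.5 CPM in WT and between 4.35 and 22.2 CPM, with a median of 13.4, in KO. Its KO mean was 13.1% of the WT mean, and the groups did not overlap (by an exact permutation of labels p = 0.0357, which is as small as 2 against 6 libraries can give, for means that differ by -3.01 on the log2(CPM + 1) scale).

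The RNA left in KO was of another make-up than that of WT. ENSMUST00000126066.7, annotated with 77.1% of the coding bases, was at 33.1 ± 4.27 CPM in WT (SD, n = 2) and 0.945 ± 0.389 CPM in KO (SD, n = 6), or 2.85% of WT. ENSMUST00000140121.7, with 45.4% of them, had a KO mean at 52.8% of WT, and ENSMUST00000128269.7, with 15.4%, was at 10.1 CPM in WT and 10.6 CPM in KO. The last of these made up 6.40% of Zbtb38 CPM in WT and 34.6% in KO (23.9% to 47.0%), and in TPM, which counts per length, 31.2% against 74.9% (68.9% to 81.1%). Its share was higher in each of the 6 KO libraries than in either WT library. The transcripts share their upstream exons, so how Salmon divides reads among them is uncertain. Reads from these exons can be counted for ENSMUST00000152594.7, so its level in KO does not show that coding RNA was left. The coding sequence opens, on the minus strand of chr9:96689000-96689029, with these 30 bases, the start codon in capitals, which show where the exon that Cre removes begins to be translated:
Zbtb38 first coding bases: ATGacagtcatgtccctctccagggacctc

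**Figure D1:**
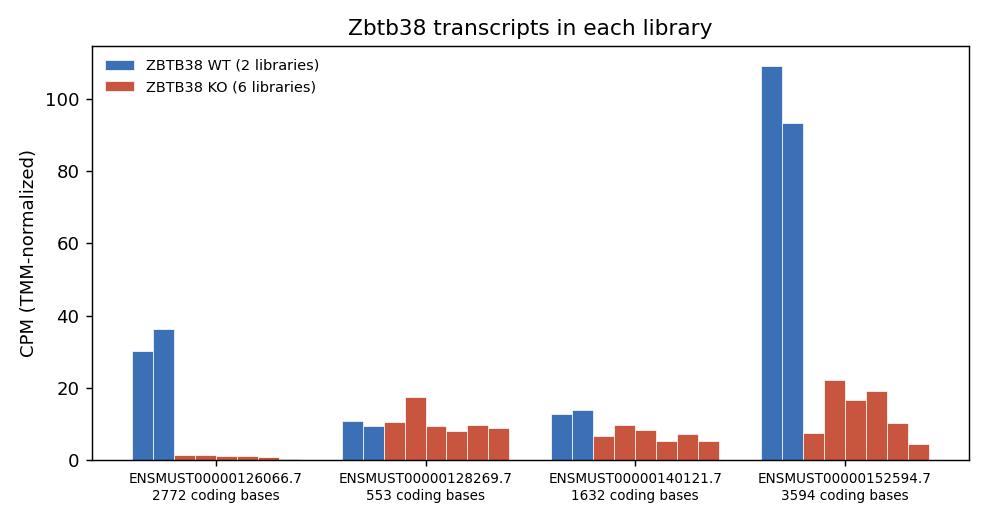
CPM of the quantified Zbtb38 transcripts in each of the 2 WT and 6 KO libraries. ENSMUST00000152594.7, which holds the whole coding sequence, lies at 93.5 and 109 CPM in WT and at 4.35 to 22.2 CPM in KO, while ENSMUST00000128269.7 lies at 9.43 and 10.8 CPM in WT and 7.93 to 17.5 CPM in KO.

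Beyond Zbtb38, most genes abundant enough to be measured well were within 2-fold of WT in KO. Of 14203 genes tested, Zbtb38 alone had an edgeR adjusted p under 0.1 (0.00704% of genes), and the next smallest adjusted p was 0.132. At an unadjusted p under 0.05 there were 142 genes higher in KO (1% of genes) and 169 lower (1.19%). DESeq2 called 10 of 14280 genes (0.07%) at the same threshold, with 499 of 17237 genes (2.89%) at an unadjusted p under 0.05. The median log2 fold change over all genes tested was 0.01, and 51.8% of genes were higher in KO. In 381 genes (2.68%) all KO libraries lay above both WT libraries, and in 556 (3.91%) all lay below. Without WT replicate 1 these counts were 1494 and 1769, without WT replicate 2 they were 1164 and 1589, and without KO replicate 4 they were 737 and 898.

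Precision followed abundance. For 7493 genes (52.8%), limma voom's 95% confidence interval of the log2 fold change lay inside -1 to 1, so that a change of 2-fold or more was outside the interval. Without WT replicate 1 there were 4916 such genes. Of the 2396 genes at 100 CPM or more, 2304 (96.2%) were bounded in this way, and the median absolute log2 fold change was 0.14. Among 6238 genes at 10 to 100 CPM, 4941 (79.2%) were bounded, with a median absolute log2 fold change of 0.18. Of 3023 genes at 1 to 10 CPM 248 (8.20%) were bounded, and of 2546 genes under 1 CPM 0 were. A fold beyond 2 was estimated for 37.1% of genes under 1 CPM and for 0.250% of genes at 100 CPM or more. A 2-fold effect of the KO thus lay outside the interval for none of the genes under 1 CPM, of which 85 (3.34%) had an unadjusted edgeR p under 0.05, against 2.19% of all genes.

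**Figure D2:**
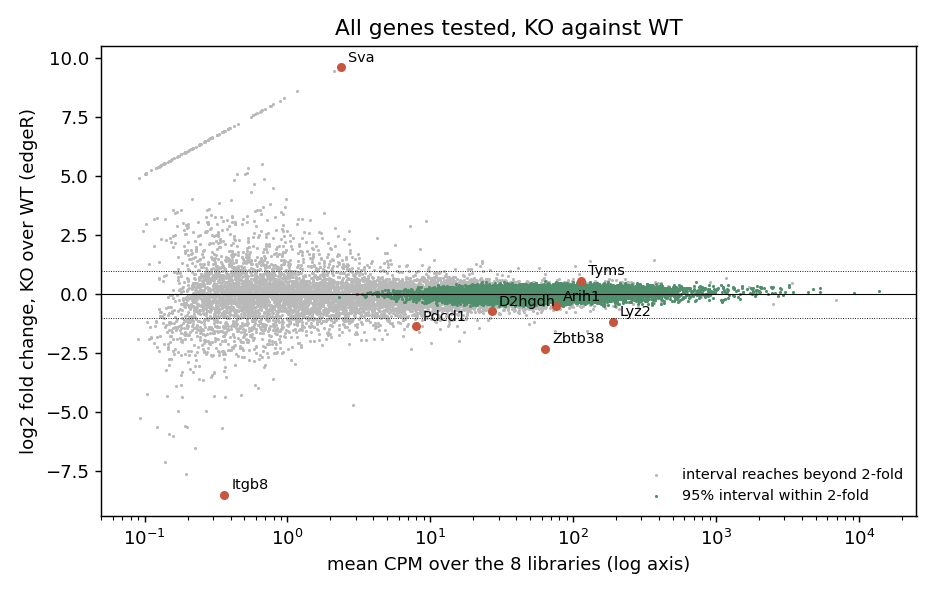
Log2 fold change of KO over WT (vertical axis) against mean CPM on a log axis for the 14203 genes tested, each point a gene, in green where the 95% interval lies within 2-fold (dotted lines). The spread narrows from a median absolute log2 fold change of 0.69 under 1 CPM to 0.14 at 100 CPM or more, and the diagonal at the top holds genes at 0 in WT, whose fitted fold depends on the prior count.

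Among genes at 100 CPM or more, 6 had an estimated fold beyond 2. Antibody genes made up 5 of them and were named after their values were seen, and the other was Lyz2, given with the macrophage markers. Igha, the constant region of IgA, was at 40.8 and 61.9 CPM in WT and 68.0 to 263 CPM in KO (median 99.7, log2 fold change 1.22, standard error 0.486), and the kappa variable gene Igkv6-15 was at 68.4 and 48.9 CPM in WT and 78.0 to 314 CPM in KO (log2 fold change 1.39, standard error 0.516). In both genes all 6 KO libraries lay above WT, as in 2.68% of all genes, and the choice by fold favors this. KO replicate 6 was the highest in both. Ighg2c and Igkv14-111 were higher on average in KO, with log2 fold changes of 1.45 and 1.08, and overlapped WT. Igkv17-127 was lower at -1.53, but without WT replicate 1 its log2 fold change was 0.25. Levels differed widely among mice, with Ighg2c at 83.8 to 917 CPM in KO. Variable gene segments also have near-identical copies that can share reads, so these folds are uncertain. The edgeR adjusted p was 0.999 for each.

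Several genes of moderate abundance were lower in all KO libraries than in WT. The clearest was D2hgdh, the mitochondrial dehydrogenase that converts D-2-hydroxyglutarate to 2-oxoglutarate (chromosome 1, 93824909 to 93852348). It was at 35.3 and 40.9 CPM in WT and between 21.2 and 25.1 CPM, with a median of 23.6, in KO. The KO values lay close together and all under both WT values, at a log2 fold change of -0.72 (standard error 0.173). DESeq2 called it with an adjusted p of 0.0117, and edgeR did not, with 0.999 and a range from 0.0117 to 1 over the alternatives. Arih1, a ubiquitin ligase that works with cullin complexes (chromosome 9, 59388258 to 59486618), was at 98.8 and 96.1 CPM in WT and 58.4 to 74.8 CPM in KO, with a median of 69.8. Its log2 fold change was -0.51 (standard error 0.137), and DESeq2 gave it an adjusted p of 0.0989, against 0.999 from edgeR and up to 1 over the alternatives.

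Ikbkg encodes NEMO, the regulatory subunit of the kinase that activates NF-kappaB, and was also lower. It was at 69.7 and 77.3 CPM in WT and 27.4 to 61.4 CPM (median 44.9) in KO, or -0.71 in log2 (standard error 0.239). Gmip, a GTPase-activating protein for RhoA, was at 210.1 and 236 CPM against 130.1 to 183 CPM (median 164), a log2 fold change of -0.47 (standard error 0.146). S1pr3, a receptor for sphingosine-1-phosphate, was at 99.6 and 110.2 CPM against 55.0 to 90.8 CPM (median 66.8), at -0.60 (standard error 0.204). Edrf1, named for a role in erythroid differentiation, was at 62.2 and 69.2 CPM against 39.8 to 49.99 CPM (median 46.1), at -0.54 (standard error 0.151). In none of these genes did a KO library reach the lower WT library, and each had an edgeR adjusted p of 0.999. They were chosen by smallest p, which favors genes whose groups lie apart, and 3.91% of all genes were lower in KO without overlap.

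Among the genes with the smallest p in the lower direction were rare transcripts present in WT and almost missing from KO. They were chosen by that p and passed the count filter through the WT libraries alone, so the selection favors this pattern. Of the 2546 genes under 1 CPM, 472 had an estimated fold beyond 2 in each direction. Card10, Ccl1, Slc7a10, Dnali1, Esam, Fam69c, Tuba8 and Angpt1 had 10 to 49 counts in each WT library, that is 0.348 to 1.70 CPM, and 0 to 4 counts in each KO library. They include a chemokine (Ccl1), an amino acid transporter (Slc7a10), an endothelial adhesion molecule (Esam), a vascular growth factor (Angpt1) and a tubulin (Tuba8). Itgb8, an integrin subunit that can release active TGF-beta, was at 2.39 and 0.487 CPM in WT and at 0 in KO. Set against a floor of 3 counts in each library, it was at least 14.3-fold lower, but the bound was 4.84-fold without WT replicate 1. A floor of this kind covers counting error only, and no fold is given for the other genes because their KO counts were at or near it.

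Among genes higher in KO with a mean of at least 50 CPM, the 6 with the smallest unadjusted edgeR p were Tyms, Adk, Pdzd11, Kif20b, Spc24 and Nutf2. Adk, adenosine kinase, was at 78.2 and 72.0 CPM in WT and 96.3 to 127 CPM in KO (log2 fold change 0.53, standard error 0.155). Tyms, thymidylate synthase of DNA precursor synthesis, was at 95.6 and 70.3 CPM in WT and 106 to 139 CPM (median 126) in KO, with a log2 fold change of 0.57 (standard error 0.165). Spc24, a kinetochore protein of the NDC80 complex, was at 118 and 97.4 CPM against 130.1 to 179.6 CPM (median 147), at 0.49 (standard error 0.167). The mitotic kinesin Kif20b was at 67.4 and 72.4 CPM against 82.8 to 119 CPM (median 96.0), at 0.48 (standard error 0.162). In these 4 genes the lowest KO library lay above the higher WT library, by a margin smaller than the spread among KO libraries. Choice by smallest p favors such a gap, which 2.68% of all genes had in this direction. Nutf2, which carries Ran into the nucleus, and Pdzd11, a PDZ domain protein, had log2 fold changes of 0.48 and 0.50 (standard errors 0.170 and 0.157) and did not overlap either. The kappa variable gene Igkv4-91 was at 9.72 and 10.8 CPM in WT and 11.5 to 38.7 CPM in KO. The edgeR adjusted p of each gene was 0.999.

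At the lower end, some genes chosen by smallest p or a DESeq2 call were found in KO and not in WT. They passed the count filter through the KO libraries alone, so the selection favors this pattern. With 0 counts in both WT libraries, and set against the floor of 3 counts in each, Sva, a seminal vesicle antigen, was at least 35.7-fold higher in KO (49 to 140 counts in each KO library, adjusted p 0.132 by edgeR and 2.11e-05 by DESeq2), Gm10273 at least 32.1-fold, Arpp21 at least 14.3-fold, Elovl4 at least 11.5-fold and the transcript RP23-9N7.2 at least 5.81-fold. Elovl4 elongates very long fatty acids, and Arpp21 is a phosphoprotein better known from neurons and developing lymphocytes. The levels were uneven among mice: Gm10273 had 0 counts in KO replicate 4, Elovl4 had 125 counts in KO replicate 6 and 4 to 18 in the others, and Arpp21 had 138 counts in that library and 4 to 43 in the others. Without KO replicate 6 the bounds were 5.21-fold for Elovl4 and 7.72-fold for Arpp21, and without KO replicate 1 that of Gm10273 was 21.2-fold. Arsi, a sulfatase family member, had counts in KO replicates 5 and 6 alone (27 and 127), yet DESeq2 called it along with Gm10273 and Arpp21. Slc26a9, an anion transporter, had 2 and 3 counts in WT and 14 to 60 in KO. The odorant receptor gene Olfr984, which has close copies that can share reads, was at 2.10 and 3.34 CPM in WT and 5.41 to 16.4 CPM in KO (DESeq2 adjusted p 0.0135, edgeR 0.999). The histone gene Hist1h2bq had 2 and 0 counts in WT and 16 to 46 in KO, and it has near-identical copies that can share its reads.

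The known partners of ZBTB38 were expressed at the same order in both groups. Of the 5 genes of its axis (Rbbp6, Usp9x, Mcm10, Ctbp1, Ctbp2), 2 were higher in KO and 3 had voom intervals within 2-fold. Mcm10, the replication factor that ZBTB38 is reported to repress, was at 79.7 and 80.0 CPM in WT and 59.9 to 105 CPM (median 80.3) in KO, so the WT values sat in the middle of the KO range. Its voom interval ran from -0.48 to 0.50. Rbbp6, whose product marks ZBTB38 for degradation, was at 96.2 and 95.2 CPM in WT and 69.1 to 93.7 CPM (median 80.9) in KO (log2 fold change -0.26, standard error 0.152). It was below WT in 6 of 6 libraries by a small margin, as were 3.91% of all genes. The corepressor Ctbp1 was at 356 and 345 CPM against 284 to 359 CPM.

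Other readers and writers of DNA methylation had no common direction. All 9 methyl-CpG readers were tested, with a median log2 fold change of 0.01 (all genes 0.01), 7 bounded within 2-fold and 0 at an unadjusted edgeR p under 0.05 (DESeq2 called none of them either). By limma on log2(TPM + 1) their median was -0.14. On that scale the median over all genes was -0.107, which also applies to the limma values of the lists that follow. The most abundant per length, Mbd2, was at 496 and 392 CPM in WT and ranged from 149.9 to 529 CPM in KO. Of 7 DNA methylation enzymes 3 were higher in KO, and the median was -0.14. The maintenance methyltransferase Dnmt1 was at 585 and 517 CPM against 349 to 657 CPM (median 506). Of 45 BTB zinc finger genes other than Zbtb38, 44 were tested, 20 were higher in KO and the median was -0.03. Here and in the lists that follow, members whose WT and KO libraries do not overlap were named after their values were seen. Zbtb2 was such a member, 1 of 44 against 3.91% of all genes, at 41.5 and 37.1 CPM in WT and 16.8 to 34.7 CPM in KO, and Bcl6, the repressor that germinal centers depend on, was at 234 and 249 CPM against 170.0 to 281 CPM. Zbtb20 had the widest range of the abundant members, 108 to 519 CPM in KO around WT values of 205 and 226 CPM.

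Germline genes that DNA methylation keeps silent were low in both groups, with the highest value 1.76 CPM (Tex14 in KO replicate 1). Of 14 germline genes of this kind, 5 (Dazl, Mael, Tex101, Taf7l and Stk31) had 0 counts in all 8 libraries, which at this depth allows up to 0.110 CPM, and 3 passed the filter on low counts. Their summed level was 1.96 and 0.870 CPM in WT and 0.544 to 2.52 CPM in KO, with Tex14 the most abundant, and the groups overlapped. The median over the 3 genes tested was 0.24, but -0.03 by limma on log2(TPM + 1), -0.40 in the libraries with Y-linked transcripts and between -0.995 (without KO replicate 4) and 0.43 with each library left out, so it has no settled direction. Of 21 imprinted genes 12 were tested, 5 were higher in KO, and the median was -0.07. It ran from -0.24 to 0.03 over the alternatives, was 0.02 in the libraries with Y-linked transcripts, and turned in sign under 2 of 13 alternatives. Gnas, the most abundant, was at 967 and 890.2 CPM in WT and 838 to 1139 CPM in KO, with a voom interval from -0.26 to 0.34. Ndn, Peg10 and Phlda2 had 0 counts in the 8 libraries.

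The germinal center program was at similar levels in both groups, and most of its genes were bounded. Of 17 germinal center transcription factors 7 were higher in KO, the median was -0.02, and 16 were bounded within 2-fold. Pou2af1, the B cell coactivator, was at 1592 and 1364 CPM in WT and 1282 to 1770.2 CPM (median 1649) in KO. Tcf3, which drives the dark zone program, was at 555 and 570.1 CPM in WT and 393 to 503 CPM in KO, the 1 of 17 whose libraries did not overlap (3.91% of all genes were lower in this way). Of 12 dark zone genes 9 were higher in KO (51.8% of all genes were), with a median of 0.18 (0.01 by limma on log2(TPM + 1)) and a range of -0.19 to 0.41, and all 12 were bounded. Ccnb2, a mitotic cyclin, was at 244 and 252 CPM in WT and 255 to 367 CPM (median 300.0) in KO. Light zone genes showed 4 of 12 higher in KO, a median of -0.09 and 10 bounded. Cd83, an activation marker of that zone, was at 504 and 627 CPM against 384 to 589 CPM. No gene of the 3 lists had an unadjusted edgeR p under 0.05, and DESeq2 called none.

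The 12 genes of somatic hypermutation and its repair had a median of 0.06 (-0.03 by limma on log2(TPM + 1)), with 6 higher in KO and 11 bounded. Among 10 plasma cell genes 7 were higher in KO and 5 were bounded, with a median of 0.09 (-0.09 by limma on log2(TPM + 1), -0.23 in the libraries with Y-linked transcripts, -0.13 to 0.21 with each library left out), and their sum was 2624 and 2303 CPM in WT and 1999 to 2832 CPM in KO. Jchain, which joins secreted IgM and IgA, was at 1176 and 1024 CPM against 892 to 1401 CPM. Among 12 genes of naive and memory B cells 5 were higher and 5 bounded, with a median of -0.03 (-0.27 by limma on log2(TPM + 1), -0.23 in the libraries with Y-linked transcripts, -0.19 to 0.08 with each library left out), and their sum was highest in KO replicate 6 (1915 CPM against 942 to 1349.5 CPM in the other KO libraries and 1269 and 1311 CPM in WT). The 13 germinal center B cell markers tested had a median of 0.20 (-0.05 by limma on log2(TPM + 1)), 11 of them bounded, and the 10 B cell markers 0.02 (-0.13), all 10 bounded. Rgs13, a regulator of chemokine receptor signals in germinal center B cells, was at 314 and 283 CPM in WT and 306 to 689 CPM (median 378) in KO.

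B cell receptor signaling held a few genes that were lower in KO. Of 20 members 7 were higher in KO, the median was -0.08, and 18 were bounded. The kinase gene Syk was at 780.1 and 864 CPM in WT and 513 to 778 CPM in KO, and Pik3cd, the catalytic subunit of PI3K delta, at 376 and 368 CPM against 198 to 359 CPM. Vav2, a guanine nucleotide exchange factor, was lower on average (log2 fold change -0.52, standard error 0.222) and overlapped WT. Vav2 was among the 2 members with an unadjusted edgeR p under 0.05, 10% of the list against 1.19% of all genes in that direction, and the 3 of 20 whose KO libraries all lay below WT compare with 3.91%. The edgeR adjusted p of Vav2 was 0.999. The receptor chains Cd79a and Cd79b were level, at 1984 and 2135 CPM in WT against 1724 to 3001 CPM for the former. Antigen presentation was similar in both groups, with all 11 genes of MHC class II and antigen loading bounded, 8 higher in KO and a median of 0.07 (-0.08 by limma on log2(TPM + 1)). Cd74, the invariant chain, was at 13055 and 12753 CPM against 11864 to 19756 CPM, with the highest value in KO replicate 1.

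All 17 genes of the MCM helicase and replication origins had intervals within 2-fold, 14 were higher in KO and the median was 0.05 (-0.11 by limma on log2(TPM + 1), where the median over all genes was -0.107). Pcna, the sliding clamp, was at 401 and 385 CPM in WT and 369 to 580.5 CPM (median 462) in KO, and Mcm6 at 931 and 826 CPM against 594 to 1052 CPM. Gins1, a part of the active helicase, was the 1 of 17 members above WT in 6 of 6 KO libraries (2.68% of all genes), at 25.8 to 36.2 CPM against 20.9 and 24.3 CPM. Of 16 p53 targets 15 were tested, 6 were higher in KO, 11 were bounded and the median was -0.01 (0.01 on length-scaled counts). In the apoptosis list 12 of 17 were higher and 13 bounded, with a median of 0.10 (-0.03 by limma on log2(TPM + 1)). Xiap, an inhibitor of caspases, was at 13.7 and 15.6 CPM in WT and 16.6 to 25.2 CPM (median 22.7) in KO, the 1 of 17 members with an unadjusted edgeR p under 0.05 in the higher direction, against 1% of all genes (log2 fold change 0.60, standard error 0.228). Pro-apoptotic Bad was also higher without overlap (33.1 to 51.3 CPM against 31.4 and 31.8 CPM). With Xiap it made up the 2 of 17 members above WT in all KO libraries (2.68% of all genes). Mcl1, a survival factor that germinal center B cells depend on, was at 627 and 638 CPM in WT and 535 to 688 CPM in KO.

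Most genes of a short list of mitochondrial respiration were slightly higher in KO on average. Of 19 oxidative phosphorylation genes 18 were higher in KO, with a median log2 fold change of 0.25 against 0.01 over all genes, and the median stayed above 0 under each scaling tried (0.09 by limma on log2(TPM + 1)). The difference was small: 17 were bounded within 2-fold, 0 had an unadjusted edgeR p under 0.05 and DESeq2 called none. The sum over the list was 6873 and 6157 CPM in WT and 6331 to 8828 CPM (median 7538) in KO, so KO replicates 2 and 4 lay within the WT range and the other 4 above it. Cycs, cytochrome c, was at 132 and 133 CPM in WT and 139.6 to 284 CPM in KO, and with Uqcrc2 and Ndufv1 it was among the 3 of 19 members above WT in all KO libraries (2.68% of all genes). Ndufa1, a subunit of complex I, had the largest estimate, at 141 and 109 CPM in WT and 125 to 309 CPM (median 182) in KO (log2 fold change 0.63, standard error 0.305), and overlapped WT. Atp5b of the ATP synthase was at 1886 and 1636 CPM against 1770.3 to 2260.0 CPM.

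Antioxidant genes had 13 of 17 higher in KO and a median of 0.16 (-0.03 by limma on log2(TPM + 1), where the median over all genes was -0.107). Prdx1, a peroxidase of hydrogen peroxide, was at 929 and 827 CPM in WT and 845 to 1486 CPM (median 1171) in KO, and Gpx1 at 513 and 425 CPM against 471 to 772 CPM. Both overlapped WT, and Gclm, which limits glutathione synthesis, did not (22.4 to 31.7 CPM against 21.9 and 17.5 CPM). Gclm was the 1 of 17 members above WT in all KO libraries (2.68% of all genes). In glycolysis 10 of 14 genes were higher in KO with a median of 0.11 (-0.06 by limma on log2(TPM + 1)), but Hk1, the hexokinase of most cells, went the other way. It was at 62.7 and 62.0 CPM in WT and 26.3 to 55.8 CPM (median 38.7) in KO, or -0.63 in log2 (standard error 0.286). Cholesterol synthesis showed no common direction, with 6 of 15 higher and a median of -0.03 (-0.21 by limma on log2(TPM + 1), -0.18 to 0.18 with each library left out). Interferon-stimulated genes were higher in 4 of 17, with a median of -0.24 (-0.78 in the libraries with Y-linked transcripts, -0.55 to -0.12 with each library left out), and 6 were bounded. Ifit2, an antiviral effector, was at 8.10 and 8.28 CPM in WT and 2.14 to 5.76 CPM (median 3.76) in KO (log2 fold change -1.07, standard error 0.419).

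**Figure D3:**
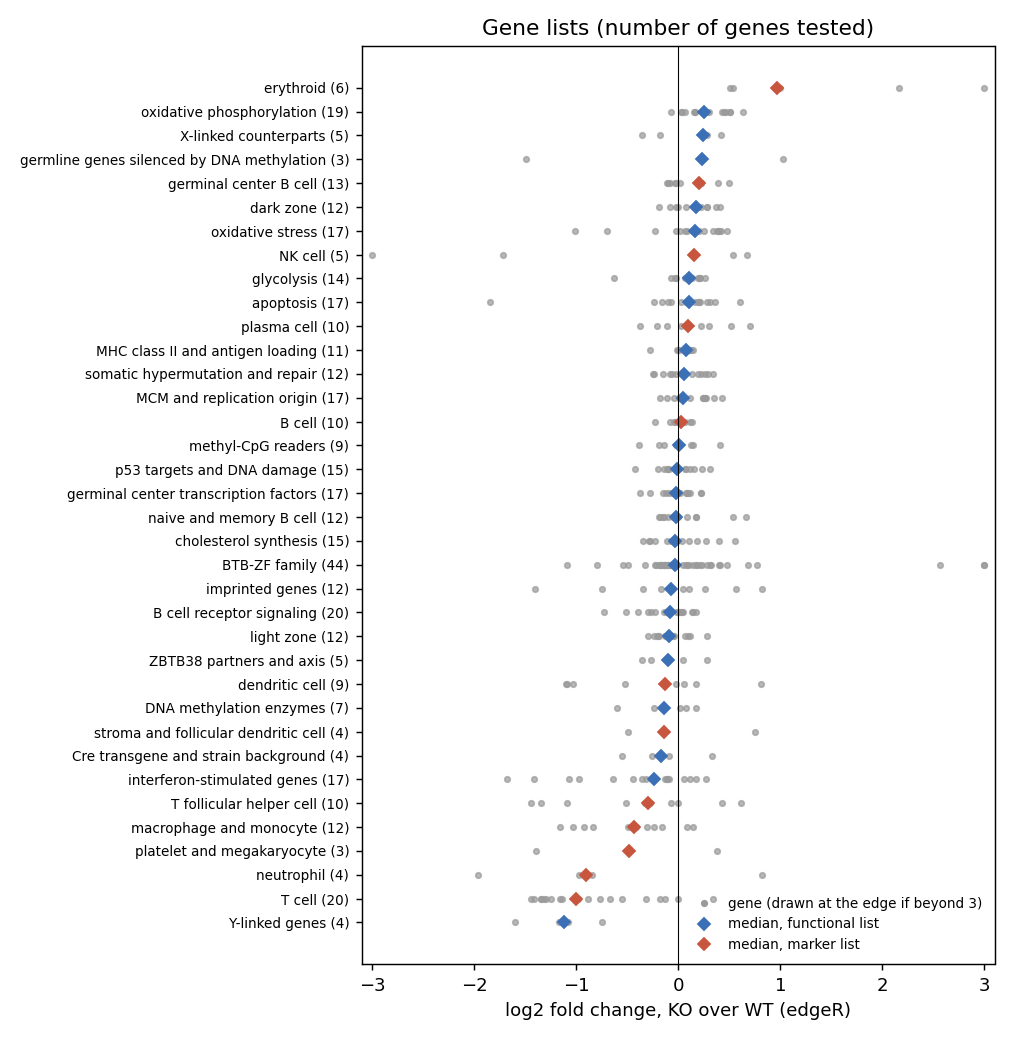
Log2 fold change of KO over WT for each tested member of the gene lists (points, drawn at the edge beyond 3) with the median of each list (diamonds). T cell markers lie lowest among the larger lists, at a median of -0.999, and the oxidative phosphorylation genes are at 0.25.

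T cell transcripts were lower in KO libraries, although the sort for GL7+IgD- B cells should have removed T cells from both groups. Of 20 T cell markers 1 was higher in KO, the median log2 fold change was -0.999, 8 had an unadjusted edgeR p under 0.05 in the lower direction (1.19% of all genes) and 9 did not overlap (3.91% of all genes). Summed over 5 genes of the T cell receptor and CD3 (Cd3e, Cd3g, Trac, Trbc1 and Trbc2), the level was 101.7 and 97.6 CPM in WT and 25.8 to 70.3 CPM, with a median of 48.2, in KO, each KO library below both WT libraries. All 5 had an unadjusted edgeR p under 0.05. Cd3d and Cd247 of the list did not and were left out, so the choice of genes favors this gap. Trac, the constant region of the receptor alpha chain, was at 25.1 and 20.8 CPM in WT and 5.12 to 15.6 CPM (median 11.6) in KO, and Cd6, a T cell adhesion receptor, at 19.2 and 25.4 CPM against 1.81 to 14.2 CPM (median 9.09). Tcf7, a T cell transcription factor, was at 34.2 and 47.9 CPM against 4.76 to 33.3 CPM, its highest KO library just under WT. Lck and Cd2, the most abundant of the list which B cells can also express, were level: Lck was at 161 and 169 CPM in WT and 127 to 221 CPM in KO. Summed over the 20 genes the level was 518 and 566 CPM in WT and 321 to 489 CPM (median 394) in KO. In bulk RNA, fewer cells of a type and less RNA per cell cannot be told apart, and each T cell gene had an edgeR adjusted p of 0.999 or more.

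Markers of T follicular helper cells, which lie beside B cells in the germinal center, had 3 of 10 higher in KO and a median of -0.30 (-0.42 to -0.07 with each library left out, the last without WT replicate 1). Their sum, led per length by Cxcr5, was 329 and 322 CPM in WT and 267 to 394 CPM in KO. The receptor gene Icos was at 5.85 and 9.74 CPM in WT and 1.28 to 4.99 CPM (median 2.25) in KO, below WT in 6 of 6 libraries. Cxcr5, which B cells share, was at 251 and 238 CPM against 217 to 283 CPM. Pdcd1, an inhibitory receptor, was at 11.9 and 17.1 CPM in WT and 4.40 to 7.78 CPM in KO, and was called by DESeq2 (adjusted p 0.0656) and not by edgeR (0.999). Icos and Pdcd1 were the 2 of 10 members with an unadjusted edgeR p under 0.05 in the lower direction (1.19% of all genes) and the 2 without overlap (3.91% of all genes).

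Macrophage transcripts varied more among KO mice than between the groups. Of 12 markers 2 were higher in KO, with a median of -0.43 that was -0.75 by limma on log2(TPM + 1), -1.36 in the libraries with Y-linked transcripts and -0.73 to -0.15 with each library left out, and 0 had an unadjusted edgeR p under 0.05 (DESeq2 called none). The sum was 635 and 503 CPM in WT and 116, 89.0, 312, 825, 304 and 308 CPM in KO replicates 1 to 6, so KO replicate 4 lay above WT and the other 5 below. Lyz2, lysozyme of myeloid cells and the most abundant of them, was at 348 and 299.7 CPM in WT and from 21.0 to 526 CPM (median 74.4) in KO. Its log2 fold change was -1.16, and ran from -3.62 to -0.93 over the alternatives. Of these, only the fit with a replicate block called Lyz2 (edgeR adjusted p = 0.00739). That fit rests on replicates 1 and 2 of each group, and KO replicates 1 and 2 had the lowest macrophage sums. Germinal centers hold macrophages that take up dying B cells, and what part they have in these values was not tested. Markers of red cells had estimates above 0 in 6 of 6 genes tested, but each overlapped WT, 0 were bounded and 0 had an unadjusted edgeR p under 0.05. Their median was 0.97 (0.39 by limma on log2(TPM + 1), 0.25 in the libraries with Y-linked transcripts, 0.57 to 1.49 with each library left out), and the sum was 45.4 and 57.7 CPM in WT and 56.9 to 97.2 CPM in KO. Globin genes made up most of that sum and are near-identical copies, Slc4a1 had 0 counts in all 8 libraries, and KO replicate 2 lay within the WT range.

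The remaining cell types left few reads. Neutrophil markers, led per length by S100a9, which had 0 counts in WT replicate 2 and KO replicates 1 and 2, summed to 5.56 and 2.30 CPM in WT and 0.770 to 3.09 CPM in KO, with 4 of 10 tested and a median of -0.91 that was 3.32 without WT replicate 1 and 0.17 in the libraries with Y-linked transcripts, and Elane, Retnlg and Mmp8 at 0. Of 8 NK cell markers 5 were tested with a median of 0.15 (-0.06 by limma on log2(TPM + 1), -0.82 without WT replicate 2, 1.19 without WT replicate 1), and the sum, led per length by Nkg7, was 11.4 and 5.43 CPM in WT and 2.10 to 17.7 CPM in KO. Platelet markers had 3 of 7 tested and a median of -0.48 (-2.57 to 0.50 over the alternatives), a sum of 34.0 and 28.2 CPM in WT and 21.6 to 55.2 CPM in KO that came mostly from Itgb3, and Gp1bb and Treml1 at 0. Dendritic cell markers had 9 of 10 tested and a median of -0.13 (-0.48 to -0.05 with each library left out). Their sum of 886 and 866 CPM in WT and 743 to 988 CPM in KO came mostly from Irf8, which germinal center B cells make themselves. Of 10 stroma and follicular dendritic cell markers 4 were tested with a median of -0.14 (-0.30 by limma on log2(TPM + 1), -0.42 to -0.07 with each library left out). The sum was 774 and 760.1 CPM in WT and 502 to 802 CPM in KO with the B cell gene Fcer2a most abundant per length, and Col3a1 and Ccl21a had 0 counts in all 8 libraries. Among them Pecam1, an adhesion molecule of endothelium and leukocytes, was at 101 and 115 CPM in WT and 60.1 to 101 CPM (median 75.8) in KO.

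**Figure D4:**
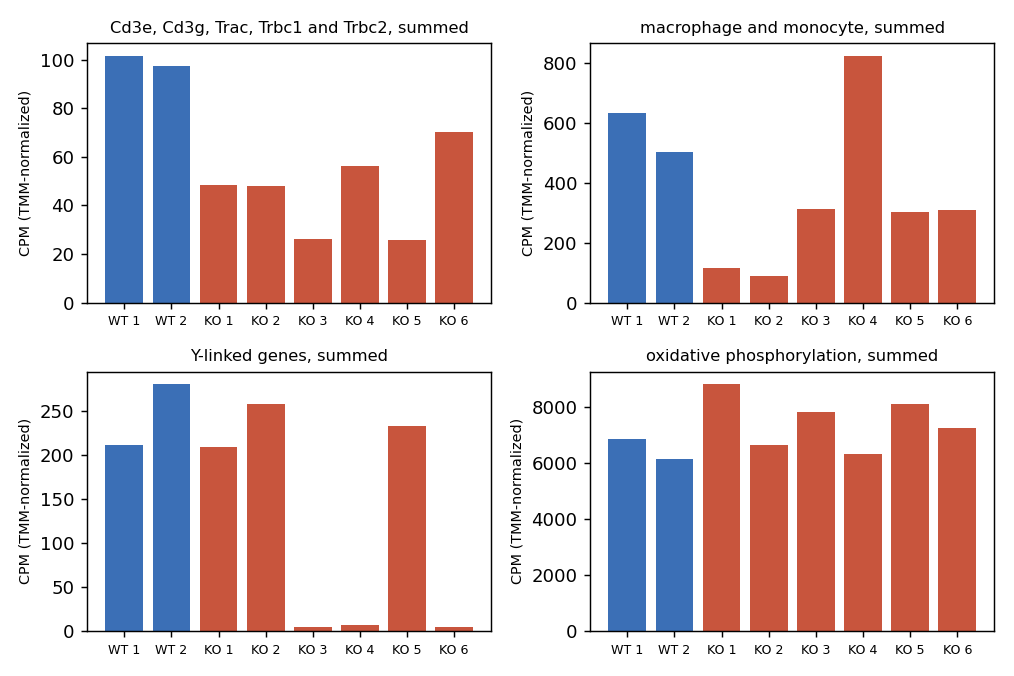
Summed CPM (vertical axes, each from 0) of 5 T cell receptor and CD3 genes, macrophage markers, Y-linked genes and oxidative phosphorylation genes in each of the 2 WT and 6 KO libraries. The 5 genes (Cd3e, Cd3g, Trac, Trbc1 and Trbc2) leave out Cd3d and Cd247, a choice that favors a gap between the groups. The T cell receptor and CD3 sum lies at 97.6 and 101.7 CPM in WT and 25.8 to 70.3 CPM in KO, and the macrophage sum spans 89.0 to 825 CPM among KO libraries.

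Sex chromosome genes divided the KO group. The 4 Y-linked genes had a median log2 fold change of -1.12 between the groups, and -0.22 without the 3 KO libraries nearly lacking Y-linked transcripts. In KO replicates 1, 2 and 5 their sum was 209, 259 and 233 CPM, as in WT (211 and 281 CPM). Eif2s3y was at 66.2 and 105 CPM in WT and ran from 0.0315 to 113 CPM in KO. The 5 X-linked counterparts had a median of 0.24, and -0.17 when the fit held only the libraries with Y-linked transcripts, a comparison chosen after seeing the data. In that fit the X-linked genes named above had log2 fold changes of 0.50 for Pdzd11, -0.72 for Ikbkg, 0.57 for Xiap and 0.74 for Ndufa1, against 0.50, -0.71, 0.60 and 0.63 over all 8 libraries. Usp9x was at -0.17 against -0.36, D2hgdh was at -0.74, Arih1 at -0.56 and Tyms at 0.67. Zbtb38 was at -2.18 there. No gene passed an edgeR adjusted p of 0.1 in that fit, with 627 at an unadjusted p under 0.05.

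By label both groups carry the floxed allele on both chromosomes, and whether the regions around it are alike in WT and KO was not tested. Within 5 Mb of Zbtb38 there were 40 genes tested, 21 higher in KO, at a median of 0.02 in log2, and 2 had an unadjusted edgeR p under 0.05, both lower in KO (Slc9a9 and Msl2, named after their values were seen), against 1.19% of all genes in that direction. Rasa2 on one side was at 94.0 and 102 CPM in WT and 75.9 to 93.6 CPM (median 91.1) in KO, and Pxylp1 on the other at 2.51 and 2.12 CPM against 0.0302 to 2.10 CPM. In both genes the highest KO library was just under the lower WT library, as it was below WT in 3.91% of all genes. By chromosome, and apart from the Y (9 genes tested, median 0.10, 0 at an unadjusted p under 0.05), the median ran from -0.02 on chromosome 5 to 0.06 on the X, and the share of genes at an unadjusted p under 0.05 from 0.989% on chromosome 17 to 3.14% on chromosome 12, with 3.00% of 832 genes on chromosome 9.

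The Cre side was examined through the Vav-Cre transgene, which sits in Commd10 in the stock used. Commd10, a member of the COMMD family, was at 38.4 and 36.3 CPM in WT and 40.0 to 56.0 CPM (median 46.8) in KO (log2 fold change 0.33, standard error 0.185). It was above WT in 6 of 6 libraries, as were 2.68% of all genes. Around it, within 5 Mb, 24 genes were tested, 12 were higher and 12 lower, the median was 0.03, and 0 had an unadjusted edgeR p under 0.05 (DESeq2 called none). Vav1, whose promoter drives Cre, was level at 384 and 363 CPM against 323 to 368 CPM. Cre is in all KO mice and in neither WT mouse, so effects of Cre and of the loss of Zbtb38 cannot be told apart here. Because the founder came from C57Bl6/J zygotes, strain markers were read as well. Of 6 genes of the Cre and strain list 4 were tested, with a median of -0.17. Nnt, which carries a deletion in C57Bl6/J and not in C57Bl6/N, was at 16.1 and 32.9 CPM in WT and at 12.1, 12.8, 26.9, 28.4, 11.0 and 9.44 CPM in KO replicates 1 to 6. WT replicate 2 and KO replicates 3 and 4 were thus at 26.9 to 32.9 CPM and the other 5 libraries at 9.44 to 16.1 CPM, a split that runs through both groups.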

How the data were processed

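RNA-seq was read from the deposited Salmon files of 8 libraries. The authors deposited estimated counts (NumReads) per transcript, made with Salmon 0.9.1 on Gencode vM17 per the submitters' processing notes, which also name DESeq2 2.11.40.6. The deposited TPM values, which divide by effective length, were used for levels between genes. Estimated counts were summed over the transcripts of each gene (64019 transcripts, 22380 genes) and rounded, since 46.8% were not whole. Positions are from Gencode vM21 (GRCm38). The 2 HET libraries of the series were left out except in an alternative fit.

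KO was tested against WT in R 4.3.3 with edgeR 4.0.16 (TMM, filterByExpr, quasi-likelihood test, Benjamini-Hochberg adjusted p under 0.1), beside DESeq2 1.42.0 and limma 3.58.1 (voom for 95% intervals). The scripts were tested on simulated data. Tables and figures used Python 3.11.15, numpy 2.4.6, pandas 2.3.3 and matplotlib 3.10.9. TMM factors were 0.918 to 1.06, and the biological coefficient of variation was 49.3%. Counts of libraries of the same group differed by a chi-square per gene of 35.2 to 171.9, where counting error alone gives 1, and each library counted as 1 sample.

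Genes named are Zbtb38, genes called by edgeR or DESeq2, the 12 with the smallest edgeR p in each direction, the 6 likewise at a mean of 50 CPM or more, list members at an unadjusted p under 0.05 or among the 2 highest in mean TPM, the neighbors of Zbtb38 and Commd10, and all Y-linked, ZBTB38 axis and Cre and strain genes. Others were named after their values were seen. Some genes that this rule names are not reported here.

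Members and lists were chosen with earlier results of these data known. The alternatives were DESeq2 and its size factors, other count filters, length-scaled counts, all 10 libraries, a robust fit, a replicate block, immunoglobulin genes left out, a Y-linked covariate, limma on log2(TPM), other windows and thresholds, each library left out, and, chosen after seeing the data, only the libraries with Y-linked transcripts.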

Additional observations from a re-analysis of the deposited data

Results flagged for a closer look

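The highest or lowest KO library lay far from the other 5 in 12 of 132 groups of values checked, where chance alone gives about 1 in 20, or 6.6. Each gap was over the 95% limit of Dixon's test for 6 libraries, which assumes normally distributed values, so the 6.6 is approximate. For single genes these were Xiap in KO replicate 5 (16.6 CPM, nearest other 22.5), Lyz2 in KO replicate 4 (526 CPM, nearest 139), Nfkbia in KO replicate 1 (313 CPM, nearest 220.0) and Igha in KO replicate 6 (263 CPM, nearest 111). On the principal components KO replicate 6 was at 142.5 on the first (nearest 6.51) and KO replicate 1 at -100.2 on the second (nearest -13.1). The components were fitted to these same libraries, which favors a library that stands apart. Among summed list levels, KO replicate 1 was apart for light zone genes (2062 CPM, nearest 1822), apoptosis genes (2061 CPM, nearest 1864) and X-linked counterparts (302 CPM, nearest 506). KO replicate 2 was apart for BTB zinc finger genes (1668 CPM, nearest 1312), KO replicate 4 for macrophage markers (825 CPM, nearest 312) and KO replicate 6 for NK cell markers (17.7 CPM, nearest 5.73). The reasons were not tested.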

How the results depend on the processing

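The count of genes with an edgeR adjusted p under 0.1, 1 in the fit reported, was 10 by DESeq2, 0 on length-scaled counts, 2 with all 10 libraries, 0 with Y-linked level as covariate, and 0 and 3 by limma on log2(TPM + 1) and log2(TPM + 0.1). It was 0 at a threshold of 0.05, 0 in the libraries with Y-linked transcripts (an alternative chosen after seeing the data) and 0 to 2 with each library left out. Zbtb38 was lower in KO under each alternative. Its log2 fold change was -1.19 on length-scaled counts, -2.17 with the Y-linked covariate, -1.34 and -1.37 by limma, -2.18 in the libraries with Y-linked transcripts and -2.49 to -2.19 with each library left out. For the transcript with the whole coding sequence the range with each library left out was -3.19 to -2.76, and without either WT library the smallest exact p is 0.143.

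Genes whose libraries did not overlap numbered 212 higher in KO in TPM, 1449 higher and 1753 lower in the libraries with Y-linked transcripts, and 441 to 1494 higher and 649 to 1769 lower with each library left out. Genes bounded within 2-fold numbered 4916 to 8182 with each library left out. The median within 5 Mb of Zbtb38 ranged likewise from -0.0769 to 0.0655. That around Commd10 ranged from -0.0684 to 0.134, and was -0.0357 within 2 Mb and -0.0303 within 10 Mb. Where 1 WT library is left it is assumed to vary like the other libraries. The cause was not tested, except that fewer libraries overlap less often.

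WT and KO replicates share numbers, but same-numbered libraries did not deviate together (correlations -0.014 and 0.117). With a replicate block 6 genes were called (Fn1, Oasl2, Trf, Tgfbi, Retnla and Lyz2), with 1090 at an unadjusted edgeR p under 0.05, and Zbtb38 was at -2.12 (edgeR adjusted p = 0.111). That fit compares replicates 1 and 2 of each group only, since KO replicates 3 to 6 have no WT library of their number.

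The median over all genes was -0.107 by limma on log2(TPM + 1) and -0.157 on log2(TPM + 0.1). Of 1901 log2 fold changes of 91 genes under the alternatives, 1803 kept direction and side of the threshold, 6 passed it, 12 no longer did and 80 turned in direction. The adjusted p of each of the 80 was above 0.9, and the cause was not tested. By limma on log2(TPM + 1) these were Cd79a at -0.0257, Cd79b -0.123, Aen 0.128, Cxcr5 -0.126, Mcm10 -0.118, Gnas -0.101, Zbtb20 -0.0251, Pou2af1 -0.0536, Nfkbia -0.0714, Jchain -0.0579, Cd74 -0.0203, H2-Ab1 -0.0367 and Idi1 -0.0447. By limma on log2(TPM + 0.1) these were Cd79a at -0.0257, Cd79b -0.123, Aen 0.129, Cxcr5 -0.127, Mcm10 -0.123, Gnas -0.101, Zbtb20 -0.0268, Pou2af1 -0.0537, Nfkbia -0.0718, Jchain -0.0580, Cd74 -0.0203, H2-Ab1 -0.0367 and Idi1 -0.0454. With Y-linked level as covariate these were Cd79b at -0.0192, Aen 0.00704, Lck 0.178, Eno1b 0.0312, Mbd3 0.117 and Bcl6 0.101. In the libraries with Y-linked transcripts these were Cd79b at -0.00920, Lck 0.173, Eno1b 0.0216, Mbd3 0.121 and Bcl6 0.0985. On length-scaled counts it was Aen at 0.272. With DESeq2 size factors it was Lck at 0.00488. By DESeq2 it was Lck at 0.00473. With the replicate block these were Lck at 0.197, Mcm10 -0.0151, Mbd2 0.112, Mbd3 0.146, Bcl6 0.145 and Idi1 -0.0924. With at least 10 counts in every library it was Cxcr5 at -0.00994. With each library left out in turn the ranges were Cd79b -0.0477 to 0.102, Aen -0.212 to 0.0363, Cd2 -0.279 to 0.0401, Lck -0.105 to 0.0646, Cxcr5 -0.0430 to 0.0428, C1qb -0.797 to 0.0123, Gzmb -4.95 to 5.01 and Nnt -0.974 to 0.0559. Further such ranges were Eno1b -0.186 to 0.134, Mcm10 -0.0382 to 0.118, Mbd3 -0.107 to 0.0671, Gnas -0.0136 to 0.107, Bcl6 -0.0856 to 0.0489, Pou2af1 -0.0160 to 0.208, Nfkbia -0.0496 to 0.164, Idi1 -0.107 to 0.350 and Igkv17-127 -2.31 to 0.252.

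For lists, 54 of 468 medians moved by more than the spread between libraries, and 15 of 36 lists kept their sign throughout. These counts include limma on log2(TPM + 1), where the median over all genes was -0.107. A turn below 0 there alone thus does not show that a list changed against other genes. With a library left out, the sign of the median turned for germline genes, methyl-CpG readers, BTB zinc finger genes, germinal center transcription factors, somatic hypermutation, plasma cells, naive B cells, MHC class II, p53 targets, cholesterol synthesis, B cells, neutrophils, NK cells and platelets. With 2 WT libraries, a median depth of 30056449.5 counts in KO and a floor of 3 counts (0.0725 to 0.110 CPM), differences in rare transcripts are the least certain.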
